A study of Mus musculus with 6 samples.

Results

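The fatty acid binding protein genes Fabp1, Fabp2, Fabp4, Fabp5 and Fabp7 were followed across the cell classes of the liver in wild-type and SIRT7-/- mice. They are 5 of the 8 Fabp genes and 5 of the 16623 genes in the deposited table, and they were taken by name. The choice was made with the mouse means of these genes in both genotypes already known, so their levels and their differences between the genotypes are given as a description, without a test.

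Fatty acid binding proteins are small cytoplasmic proteins that hold a long-chain fatty acid or a related lipid in a barrel-shaped pocket and carry it through the watery interior of the cell. FABP1 is the abundant liver form and brings fatty acids to oxidation, to triglyceride synthesis and to the nuclear receptor PPAR alpha, which in turn drives Fabp1 transcription. FABP2 is the intestinal form, FABP4 the form of adipocytes and capillary endothelium, FABP5 a widely expressed form first described in skin, and FABP7 the brain form, which in mouse liver is made by the resident macrophages, the Kupffer cells.

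Livers came from 3 wild-type and 3 SIRT7-/- mice aged 5 to 6 months, with 1 library from each mouse. SIRT7-/- mice lack the histone deacetylase SIRT7 and served the study as a model of fatty liver that arises on a chow diet. The deletion is not restricted to hepatocytes, so a difference in 1 cell class cannot be told apart from an effect of the loss of SIRT7 elsewhere in the animal. Hepatocytes and nonparenchymal cells were freed by collagenase perfusion, mixed in equal numbers and measured by 10x Genomics Chromium single-cell RNA sequencing from the 3′ end, in which each molecule carries a unique molecular identifier (UMI). The sex of the mice is not given in the sources used here.

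The table held 11610 cells, 1243, 933 and 1094 from wild-type mice 1, 2 and 3 and 5609, 2179 and 552 from SIRT7-/- mice 1, 2 and 3. Recovered UMIs numbered 3109516, 2511947 and 2731232 in the wild-type mice and 11069411, 6065832 and 2572107 in the SIRT7-/- mice. SIRT7-/- mouse 1 alone gave 67.3% of the SIRT7-/- cells, so every level below is a mean over the cells of 1 mouse, and mice count equally. Levels are counts per 10000 UMIs of a cell (CP10K). A UMI stands for 1 captured molecule whatever the length of the gene, so levels of different genes are set side by side without a correction for length. Capture may still differ between genes, which was not tested. Among all cells, 13 barcodes occurred in more than 1 mouse.

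Clustering without the Fabp genes gave 10 clusters. From marker genes, 7 of them were named macrophage-like (3714 cells), T-like (1975 cells, with natural killer genes as well), endothelial-like (530 cells), plasma-like (439 cells), neutrophil-like (301 cells), B-like (161 cells) and stellate-like (39 cells). Clusters 2, 3 and 4, with 1748, 1491 and 1212 cells, are kept by number. Clusters 2 and 4 held the hepatocyte transcripts. All 10 hepatocyte markers were detected in both clusters in every mouse, at a summed 163 to 546 CP10K in cluster 2 and 103 to 443 CP10K in cluster 4. The nuclear RNA Malat1 told them apart, at 0.398 to 16.9 CP10K in cluster 2 and 298 to 508 CP10K in cluster 4. Cluster 2 was left unnamed because 3 of its 10 leading genes were hemoglobin genes. These came mostly from wild-type mouse 1, where 6 erythroid markers summed to 104 CP10K, against 0 to 6.41 CP10K in the other 5 mice. Cluster 4 kept its number because its highest marker list was one of hepatocytes, and such clusters were not given a name. That list was the periportal one, at a mean log2 difference of 2.17 from all other cells. None of the 10 leading genes of cluster 4 was a hepatocyte marker of the lists used. Cluster 3 mixed basophil, monocyte and dendritic cell genes.

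Sirt7 itself was checked first. It averaged 0.718, 0.512 and 0.546 CP10K over all cells of the wild-type livers and 0.100, 0.0814 and 0.139 CP10K in the SIRT7-/- livers, so each library matched its label. By limma with adjustment over all genes of the class, Sirt7 was lower in T-like cells (log2 fold change -2.45 ± 0.351 SE, adjusted p = 0.00760), in cluster 4 (-2.19 ± 0.419, adjusted p = 0.0274) and in macrophage-like cells (-2.39 ± 0.406, adjusted p = 0.0359). It did not pass in cluster 2 (-2.61 ± 0.626, adjusted p = 0.0698) or in endothelial-like cells (-1.89 ± 0.847, adjusted p = 0.627). In the SIRT7-/- mice 100, 49 and 43 Sirt7 UMIs remained. Which exons the allele lacks is not given in the sources used here.

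Fabp1 and Fabp2 stood highest in cluster 2, Fabp4 in endothelial-like cells and Fabp7 in macrophage-like cells, while Fabp5 was spread over many classes. Of all UMIs counted for each gene, 51.9% of Fabp1 and 51.4% of Fabp2 lay in cluster 2, which held 15.1% of the cells. Endothelial-like cells, 4.57% of the cells, held 73.4% of the Fabp4 UMIs, and macrophage-like cells, 32% of the cells, held 97.4% of the Fabp7 UMIs. Fabp7 was also among the 10 leading genes of the macrophage-like cluster. For Fabp5, 36.1% of the UMIs lay in cluster 2. These shares pool the cells of all mice, so mice with more cells weigh more in them.

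**Figure D1:**
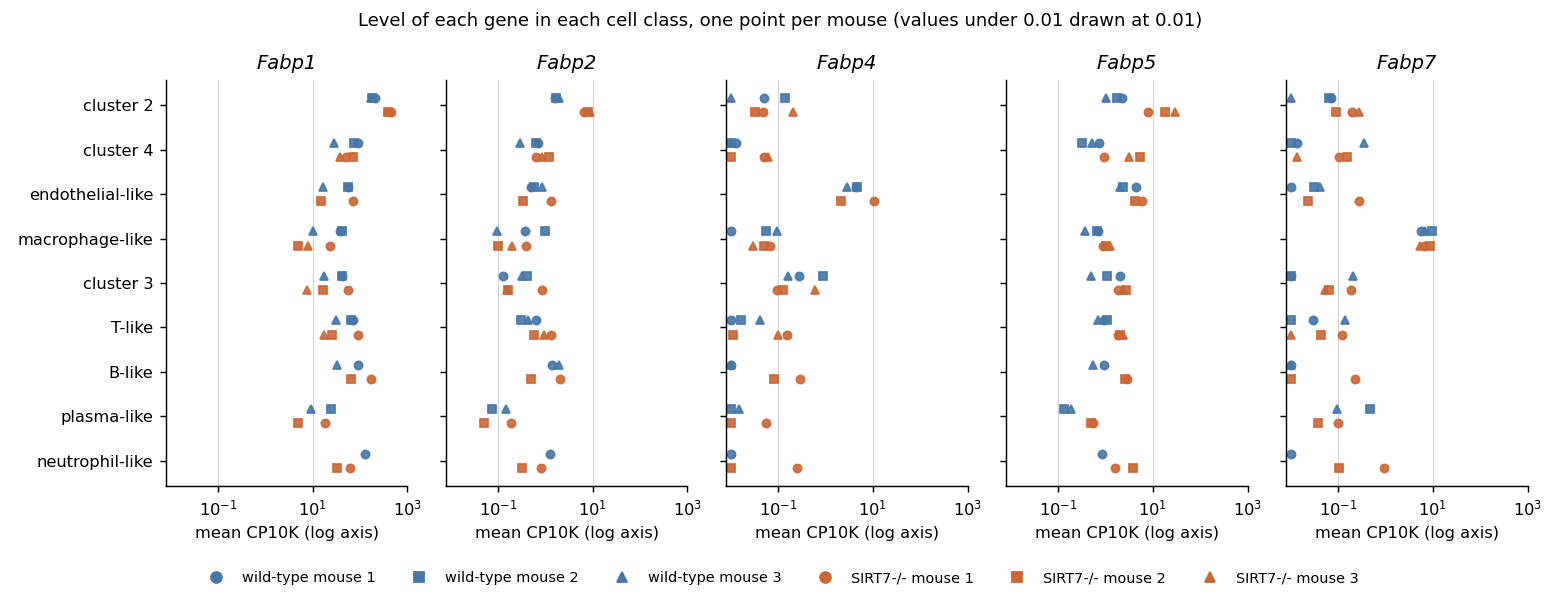
Mean level of each gene in CP10K on a log axis (horizontal) in 9 cell classes (vertical), with 1 point for each mouse that had at least 20 cells of the class, wild-type in blue and SIRT7-/- in orange. Fabp4 stands out in endothelial-like cells and Fabp7 in macrophage-like cells, while Fabp1, Fabp2 and Fabp5 in cluster 2 fall into separate ranges for the 2 genotypes.

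The liver form Fabp1 lies on chromosome 6 (chr6:71199879-71205034 in GRCm38.p6, RefSeq annotation) and the intestinal form Fabp2 on chromosome 3 (chr3:122895072-122899506). Their promoters are shown because both genes were higher in cluster 2 of every SIRT7-/- mouse. Fabp7 had the same order there on only 25 UMIs, and its promoter is not printed. The sequences are the 250 bases before the annotated start of transcription on the plus strand, from RefSeq, at chr6:71199629-71199878 and chr3:122894822-122895071, and of the 5 genes 3 were in the promoter table (Fabp1, Fabp2 and Fabp7). Capitals mark matches to any of 3 motifs searched on both strands. The first is a direct repeat as bound by PPAR alpha with RXR, 2 copies of AGGNCA with 1 base of any kind between them. The second is AGGTCA, a single nuclear receptor site, which can lie inside the first, and the last is TATAAA, the TATA box.
Fabp1: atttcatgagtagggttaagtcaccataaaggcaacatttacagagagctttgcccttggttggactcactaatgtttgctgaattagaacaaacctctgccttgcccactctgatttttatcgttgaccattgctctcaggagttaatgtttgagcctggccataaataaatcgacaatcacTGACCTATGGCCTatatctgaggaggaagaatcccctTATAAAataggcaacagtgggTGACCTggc
Fabp2: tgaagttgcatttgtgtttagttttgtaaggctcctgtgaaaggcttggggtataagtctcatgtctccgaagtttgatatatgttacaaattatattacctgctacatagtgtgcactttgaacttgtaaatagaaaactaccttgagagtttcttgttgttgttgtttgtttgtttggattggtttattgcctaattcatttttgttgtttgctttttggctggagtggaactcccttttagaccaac
The Fabp1 window held the direct repeat, on the minus strand, from 67 to 55 bases before the start, with a single site inside it. Another single site lay from 9 to 4 bases before the start and a TATA box from 30 to 25 bases before it. The Fabp2 window matched none of these letters. The Fabp7 window held 1 match, to the single site. Among 32851 promoters, 0.338% held the direct repeat, 14% the single site and 12.4% the TATA box. A match is a run of letters and not a measured site of binding.

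Fabp1 was by far the most abundant of the 5 genes. In cluster 2 it averaged 203, 175 and 168 CP10K in wild-type mice 1, 2 and 3 and 443, 388 and 390.2 CP10K in SIRT7-/- mice 1, 2 and 3. Each SIRT7-/- mouse therefore stood above each wild-type mouse, and the gap between the genotypes was wider than the range within either. The means were 182 ± 18.6 and 407 ± 31.0 CP10K (SD, n = 3 each), a ratio of 2.24 and a log2 fold change of 1.16 ± 0.146 (SE). The shift ran through the whole cluster and not through a few cells, since the median cell held 201, 165 and 154 CP10K in the wild-type livers and 443, 387 and 391 CP10K in the SIRT7-/- livers. The 10th percentile of the cells, at 238 to 256 CP10K in the SIRT7-/- mice, lay above the wild-type medians.

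Fabp2 was far rarer than Fabp1 in the same cells. It averaged 1.6, 1.65 and 1.90 CP10K in cluster 2 of the wild-type livers and 6.41, 7.94 and 8.65 CP10K in the SIRT7-/- livers. Again no mouse of one genotype fell among those of the other. The means were 1.72 ± 0.157 and 7.67 ± 1.14 CP10K, a ratio of 4.47 and a log2 fold change of 2.12 ± 0.255 (SE). At least 1 Fabp2 UMI was found in 20.9%, 23.1% and 20.4% of the wild-type cells of cluster 2 and in 52.3%, 64.6% and 68.8% of the SIRT7-/- cells. The nearest 2 mice had exact 95% binomial intervals of 19.1 to 27.5% (wild-type mouse 2) and 47.8 to 56.7% (SIRT7-/- mouse 1), which cover counting error only. With every cell thinned to 1000 UMIs and shallower cells left out, the shares were 14.7%, 15.2% and 10.3% against 41.8%, 54.4% and 46%, so the order of the mice by genotype was the same at equal depth.

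In cluster 4, which had the same hepatocyte markers with far more nuclear RNA, neither gene separated the genotypes. Fabp1 averaged 89.6, 73.2 and 27.6 CP10K in the wild-type livers and 50.4, 70.8 and 37.6 CP10K in the SIRT7-/- livers (log2 fold change -0.14 ± 0.441). Fabp2 averaged 0.699, 0.636 and 0.293 CP10K in the wild-type livers and 0.623, 1.18 and 0.842 CP10K in the SIRT7-/- livers (0.69 ± 0.443). The mice of the genotypes overlapped for both genes, and wild-type mouse 3 was the lowest for both. The difference between clusters 2 and 4 in the size of the genotype effect was not tested. With both clusters combined, Fabp1 was at 138 ± 31.1 CP10K in the wild-type and at 232 ± 113 CP10K in the SIRT7-/- genotype, with overlap. SIRT7-/- mouse 3, at 105 CP10K, had 271 cells in cluster 4 and 64 in cluster 2. Fabp2 did not overlap in the combined cells, at 1.24, 1.45 and 1.15 CP10K against 3.82, 6.57 and 2.33 CP10K.

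Alb and Apoa1, abundant hepatocyte transcripts measured beside Fabp1 in cluster 2, did not show its order of mice. Albumin (Alb) averaged 138, 212 and 59.9 CP10K in the wild-type livers and 49.6, 22.8 and 105 CP10K in the SIRT7-/- livers. The apolipoprotein Apoa1 averaged 14.9, 30.0 and 21.3 CP10K against 18.8, 14.3 and 20.5 CP10K. For both genes the mice of the genotypes overlapped, with the log2 fold changes at -1.29 ± 0.803 (limma adjusted p = 0.641) and -0.26 ± 0.242 (adjusted p = 0.709). Set against the 10 hepatocyte markers together, Fabp1 came to 43.8, 24.3 and 46.7 UMIs per 100 marker UMIs in the wild-type livers and to 155, 236 and 150.0 in the SIRT7-/- livers. The marker UMIs themselves were lower in each SIRT7-/- mouse, at 458, 669.6 and 331 against 282, 166 and 279 per 10000 UMIs summed over the cluster, which widens this ratio. As means over cells the summed markers overlapped between the genotypes, at 454, 546 and 262 CP10K against 267, 163 and 297 CP10K. Signs of RNA quality overlapped as well. Malat1 in cluster 2 was at 6.20, 9.02 and 16.9 CP10K in the wild-type livers and at 12.1, 16.6 and 0.398 CP10K in the SIRT7-/- livers, with SIRT7-/- mouse 3 far below the rest. The median mitochondrial share was 1.32%, 2.27% and 3.64% against 1.04%, 2.66% and 2.91%. Without wild-type mouse 1, the mouse with the hemoglobin transcripts, the log2 fold changes of Fabp1 and Fabp2 in cluster 2 were 1.24 and 2.07.

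**Figure D2:**
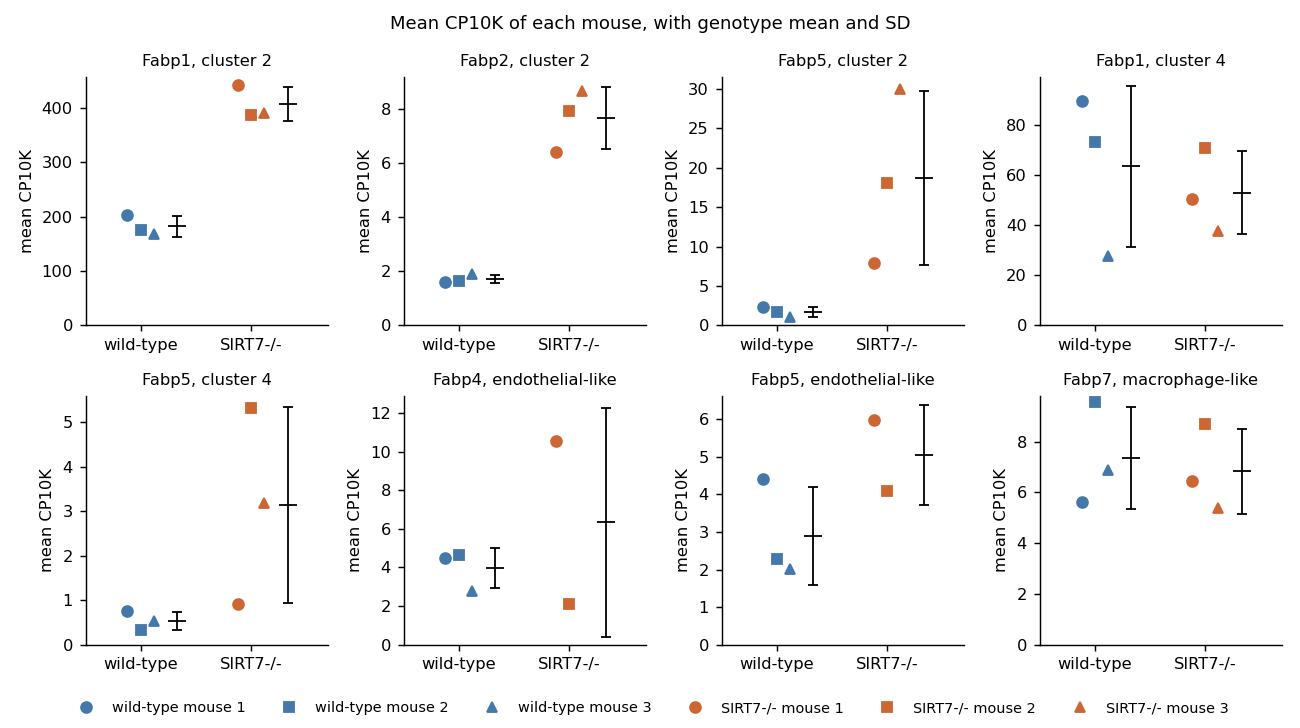
Mean CP10K of each mouse (vertical, linear axes from 0) for 8 pairs of gene and cell class, with 1 point a mouse and the mean and SD of each genotype beside the points. The endothelial-like panels have 2 SIRT7-/- mice. The genotypes are apart for Fabp1, Fabp2 and Fabp5 in cluster 2 and for Fabp5 in cluster 4, and overlap in the other 4 panels.

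Fabp5, the widely expressed form, showed the largest difference of the 5 genes in cluster 2 and had a log2 fold change above 0 in every class compared. The classes come from the same libraries, so these signs are not independent of one another. Fabp5 lies at chr3:10012585-10016610, 187731 bases before Fabp4 on the same chromosome. In cluster 2 it averaged 2.28, 1.75 and 1.04 CP10K in the wild-type livers and 7.98, 18.1 and 30.1 CP10K in the SIRT7-/- livers. The SIRT7-/- mice differed among themselves by more than the wild-type mice did, but the lowest of them was still above the highest wild-type mouse. The means were 1.69 ± 0.619 and 18.7 ± 11.1 CP10K, a ratio of 11.1 and a log2 fold change of 3.30 ± 0.482 (SE). Cells with at least 1 Fabp5 UMI made up 24.8%, 25.1% and 13% of cluster 2 in the wild-type livers and 54.8%, 80.3% and 90.6% in the SIRT7-/- livers. The exact 95% intervals of the nearest 2 mice were 20.9 to 29.5% (wild-type mouse 2) and 50.4 to 59.2% (SIRT7-/- mouse 1), and thinning to 1000 UMIs left 17.9%, 15.2% and 17.2% against 47.7%, 73.4% and 84%.

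Cluster 4 followed with 0.745, 0.325 and 0.527 CP10K of Fabp5 in the wild-type livers and 0.920, 5.31 and 3.18 CP10K in the SIRT7-/- livers (log2 fold change 2.20 ± 0.527). By mean level the genotypes did not overlap, yet SIRT7-/- mouse 1 lay close above wild-type mouse 1. By the share of cells with at least 1 Fabp5 UMI they did overlap, at 17.1%, 10.9% and 8.51% against 9.90%, 37.9% and 65.3%. After thinning to 1000 UMIs the shares were 6.56%, 3.09% and 2.56% against 8.58%, 29.0% and 25%, without overlap. The median of all genes in cluster 4 was itself shifted by 0.20 on the log2 scale, and with mice shifted by their medians the Fabp5 difference was 2.01. T-like cells had 0.925, 1.06 and 0.686 CP10K against 1.86, 2.02 and 2.39 CP10K (1.20 ± 0.265). Macrophage-like cells had 0.694, 0.653 and 0.363 CP10K against 0.888, 1.05 and 1.25 CP10K (0.88 ± 0.288). In both classes the 3 SIRT7-/- mice were the 3 highest by mean level. By the share of cells with at least 1 Fabp5 UMI the genotypes overlapped, at 23.6%, 21.7% and 10.6% against 16.4%, 21.1% and 47.6% in macrophage-like and 21.6%, 25.6% and 8.40% against 19.6%, 26.6% and 51.6% in T-like cells. After thinning to 1000 UMIs macrophage-like cells still overlapped, at 8%, 7.32% and 3.59% against 7.81%, 8.62% and 13.8%, and T-like cells did not, at 7.35%, 9.80% and 5.62% against 15.9%, 16.8% and 16.1%. On means of the ln values of the cells the differences were smaller, at 0.83 in cluster 4, 0.41 in T-like and 0.21 in macrophage-like cells.

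Fabp5 was compared in 4 further classes. Plasma-like and B-like cells, with 2 mice a genotype, showed no overlap (1.48 ± 0.483 and 1.86 ± 0.712), whereas cluster 3 (1.11 ± 0.404) and endothelial-like cells (0.85 ± 0.349) did overlap. With so few mice, 25.5% of all genes in plasma-like and 16.3% in B-like cells had every SIRT7-/- mouse above every wild-type mouse. Fabp5 UMIs were few there, 3 and 12 against 20 and 34 in plasma-like cells and 5 and 2 against 31 and 11 in B-like cells. Within T-like cells the summed natural killer markers moved too, from 19.5, 30.1 and 23.6 CP10K to 34.0, 36.5 and 65.9 CP10K, and their part in the Fabp5 difference was not tested. At a finer resolution the T-like cells held a group led by the proliferation genes Top2a and Rrm2 and by histone genes, with 73 and 193 cells in SIRT7-/- mice 1 and 2 and under 20 cells in each other mouse. Fabp5 in this group was at 1.31 and 1.7 CP10K, below the T-like mean of the same mice.

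**Figure D3:**
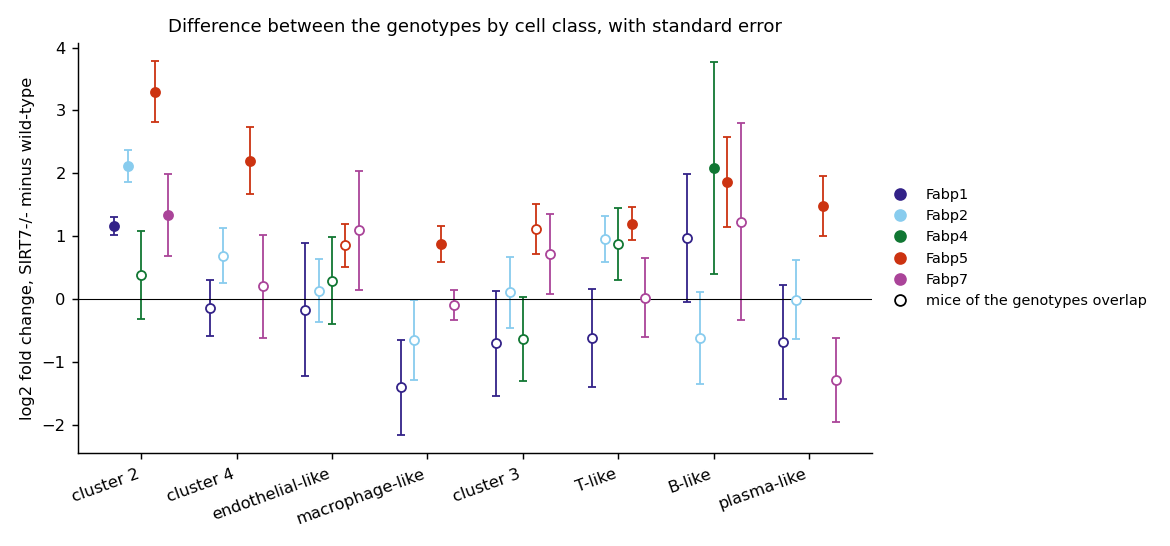
Log2 fold change of each gene between the genotypes (vertical, SIRT7-/- minus wild-type, on log2 of mean CP10K plus 0.05) with its standard error, in 8 cell classes; open circles mark genes whose mice overlap between the genotypes. Fabp5 is above 0 in all 8 classes and each of the other genes lies on either side of 0 over the classes.

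The counts of genes whose mice did not overlap are set beside all genes of each class. In cluster 2, where all 5 genes passed the filter on low values, 4 had every SIRT7-/- mouse above every wild-type mouse, and 7.79% of all genes tested there had the same order. The fourth, Fabp7, rested on 25 UMIs in all of cluster 2 (log2 fold change 1.33 ± 0.649). In clusters 2 and 4 combined the count was 2 of 5 (9.9% of all genes). It was 1 of 4 that passed in cluster 4 (12.5%) and in macrophage-like cells (7.11%), 1 of 5 in T-like cells (5.26%), 1 of 4 in plasma-like cells (25.5%) and 2 of 5 in B-like cells (16.3%). In cluster 3 (4.04%) and endothelial-like cells (9.64%) it was 0 of 5. In these 9 comparisons no gene had every SIRT7-/- mouse below every wild-type mouse. The genes were chosen on this contrast, so nothing is read from these counts.

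Fabp4, the form of adipocytes and capillary endothelium (chr3:10204342-10208616), had its highest level in endothelial-like cells, at 4.92 ± 3.33 CP10K (SD over 5 mice), 13.8 times the 0.356 ± 0.318 CP10K of cluster 3, the next class. It was higher than in cluster 3 in 5 of 5 mice. In endothelial-like cells it averaged 4.5, 4.63 and 2.78 CP10K in the wild-type livers and 10.5 and 2.12 CP10K in SIRT7-/- mice 1 and 2. The SIRT7-/- mice were thus the highest and the lowest of the 5, and the difference (log2 fold change 0.29 ± 0.687) was smaller than the spread between mice, and was -0.85 without SIRT7-/- mouse 1. SIRT7-/- mouse 3 had only 8 endothelial-like cells, at 14.2 CP10K, and did not enter the comparison.

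At least 1 Fabp4 UMI was found in 19.0 to 54.3% of the endothelial-like cells of these 5 mice, at a median of 982 to 2532 UMIs a cell. In T-like cells, which should lack Fabp4, the share was 0 to 3.23% over 6 mice at a median of 1075 to 3241 UMIs a cell. The 0 stood for 0 of 204 cells, which allows up to 1.47% of cells with a detected UMI and does not limit the share of cells that express the gene. Of 7 adipocyte markers 2 were in the table and they summed to 0.0283 to 0.241 CP10K in endothelial-like cells, with Retn at 0 in all 5 mice. Fabp5 in these cells was at 4.40, 2.29 and 2.0 CP10K in the wild-type livers and 5.99 and 4.11 CP10K in SIRT7-/- mice 1 and 2, where wild-type mouse 1 lay between the SIRT7-/- mice.

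Fabp7, the brain form (chr10:57784923-57788450), was a gene of the macrophage-like cells, at 7.09 ± 1.68 CP10K over 6 mice, 20.6 times the level of neutrophil-like cells, the next class. It averaged 5.61, 9.56 and 6.86 CP10K in the wild-type livers and 6.43, 8.67 and 5.39 CP10K in the SIRT7-/- livers. The genotypes were interleaved and the difference was -0.10 ± 0.231 on the log2 scale. Between 58.2% and 70.9% of macrophage-like cells held at least 1 Fabp7 UMI, against 0 to 1.6% of T-like cells. After thinning to 1000 UMIs the mean share over the mice was 39.6%, against 62.2% before. The 10 macrophage markers were detected in every mouse, summing to 193 to 260.4 CP10K.

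The order of the classes was then compared within mice. Fabp1 in cluster 2 averaged 294 ± 125 CP10K over 6 mice and was above B-like cells, the next class at 88 ± 58.1 CP10K, in 4 of 4 mice. Next came neutrophil-like cells (73.0 ± 47.0 CP10K), cluster 4 (58.2 ± 23.6), T-like cells (49.6 ± 29.3) and endothelial-like cells (42.5 ± 25.3). Cluster 3, macrophage-like and plasma-like cells were lowest (29.8 ± 18.4, 20.7 ± 15.8 and 14 ± 8.75 CP10K). Below cluster 2 neighbors in this order differed by less than their spread over mice, although T-like cells were above endothelial-like cells in 5 of 5 mice. Fabp2 had the same first 2 classes, at 4.69 ± 3.34 and 1.45 ± 0.703 CP10K, with cluster 2 the higher in 3 of 4 mice. Fabp5 in cluster 2 (10.2 ± 11.7 CP10K) did not stand clear of endothelial-like cells (3.76 ± 1.64 CP10K), being higher in 2 of 5 mice, both SIRT7-/-. Without SIRT7-/- mouse 3 the Fabp5 mean of cluster 2 was 6.22 CP10K. In all wild-type mice endothelial-like cells were the higher of the pair.

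Fabp1 UMIs were also common outside clusters 2 and 4, which bears on how its level in the other classes is read. T-like cells should lack it, yet at least 1 Fabp1 UMI was present in 93.5 to 100% of them in 5 mice and in 36.8% (exact 95% interval 33 to 40.6%) in SIRT7-/- mouse 2. The source of these UMIs was not tested, and no expression is read from Fabp1 levels in these classes. Fabp2 kept close to a fixed ratio to Fabp1 within a mouse in the clusters of hepatocyte transcripts. Per 100 Fabp1 UMIs there were 0.80, 0.920 and 1.16 Fabp2 UMIs in cluster 2 of the wild-type livers and 0.794, 0.821 and 1.05 in cluster 4. In the SIRT7-/- livers there were 1.43, 2.06 and 1.98 in cluster 2 and 1.47, 1.86 and 2.34 in cluster 4. The ratio was higher in the SIRT7-/- mice in both clusters, with no overlap. In cluster 4 it rested on few Fabp2 UMIs, 55, 16 and 2 in the wild-type livers against 45, 11 and 99.

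The Fabp2 ratio was also taken in other classes. In macrophage-like cells there were 1.63, 1.59 and 1.49 Fabp2 UMIs per 100 Fabp1 UMIs in the wild-type livers and 1.69, 2.51 and 2.27 in the SIRT7-/- livers, above cluster 2 of the same mouse in 6 of 6 mice. T-like cells held 0.843, 0.398 and 1.42 against 1.38, 2.15 and 2.99, lower than cluster 2 in wild-type mouse 2 and SIRT7-/- mouse 1 and higher in the other 4 mice. Many of these ratios rested on few Fabp2 UMIs. There were 9, 6 and 9 against 224, 27 and 8 in macrophage-like cells and 34, 10 and 14 against 112, 70 and 6 in T-like cells. The order of the classes within a mouse was not tested.

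For Fabp5 the ratio was taken in the same way. Per 100 Fabp1 UMIs there were 1.08, 0.95 and 0.666 Fabp5 UMIs in cluster 2 of the wild-type livers and 1.80, 4.64 and 6.83 in the SIRT7-/- livers. In cluster 4 there were 0.952, 0.616 and 2.11 against 1.89, 7.60 and 8.38. In macrophage-like cells there were 2.71, 2.92 and 4.62 against 4.29, 26.3 and 21.5, and in T-like cells 1.54, 1.87 and 3.34 against 2.42, 12.7 and 18.9. Cluster 4 lay above cluster 2 in all mice but wild-type mice 1 and 2. Macrophage-like and T-like cells lay above cluster 2 of the same mouse in 6 of 6 mice, so these cells held more Fabp5 for each Fabp1 UMI than cluster 2 did. The source of the Fabp5 UMIs in these classes was not tested.

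**Figure D4:**
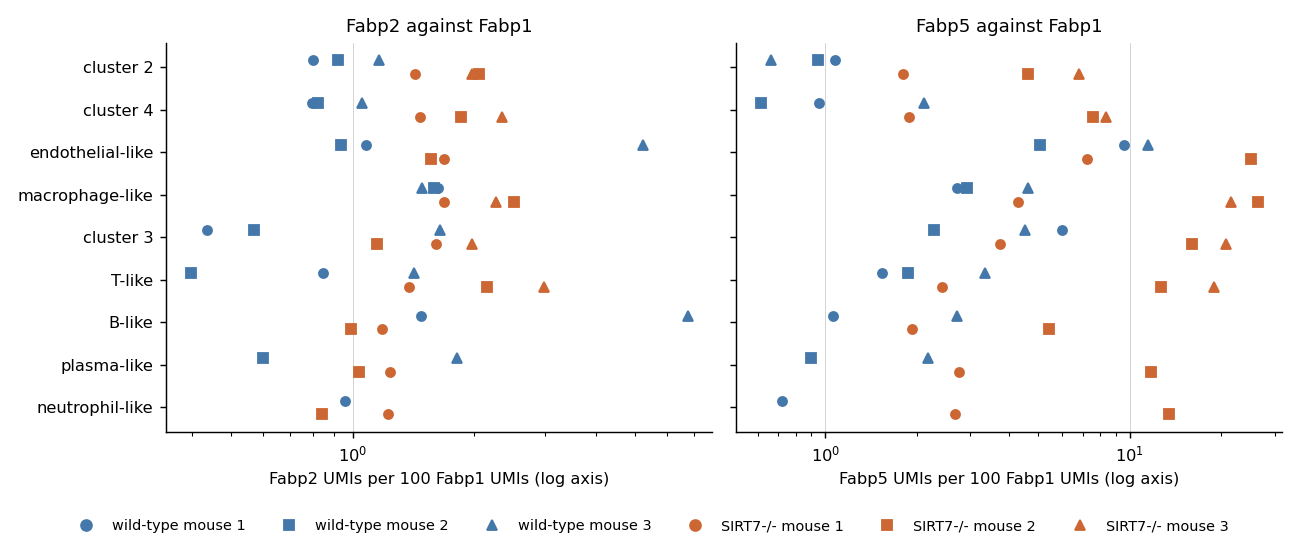
Fabp2 (left) and Fabp5 (right) UMIs per 100 Fabp1 UMIs on log axes (horizontal) in 9 cell classes (vertical), with 1 point for each mouse. The Fabp2 ratio of a mouse changes little from cluster 2 to cluster 4 and is higher in macrophage-like cells, where it rests on as few as 6 Fabp2 UMIs. The Fabp5 ratio in macrophage-like and T-like cells lies to the right of that in cluster 2 for each mouse.

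The genes whose levels followed each Fabp gene most closely were taken over 46 class-by-mouse means from 9 classes, on log2 of CP10K plus 0.05. These means share libraries, so the correlations are descriptions. Fabp1 was closest to Dbi, which binds acyl-CoA (Pearson r = 0.971), Ddt (0.955) and Cyb5a (0.946), and its r with Fabp2 was 0.856. Fabp2 was closest to Pebp1 (0.880), Gstm1 (0.880) and Acat1 (0.864). Fabp4 was closest to Stox2 (0.886), the VEGF receptor gene Flt1 (0.883) and the integrin gene Itga8 (0.882). Fabp7 followed the Kupffer cell genes Clec4f (0.924) and Folr2 (0.915) and the transporter Slc16a9 (0.911). Fabp5 had weaker neighbors, Gpx4 (0.702), Ifi27 (0.698) and Ldha (0.681).

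Hepatocytes differ along the lobule, from the portal field to the central vein, and clusters 2 and 4 were divided by periportal minus pericentral markers in each mouse to ask whether the Fabp genes followed this axis. In the most pericentral and the most periportal cells Fabp1 averaged 209.7 ± 113 and 156 ± 72.3 CP10K (n = 6) and was higher on the periportal side in 2 of 6 mice. Periportal minus pericentral, Fabp1 differed by -29.4, 4.51 and 84.1 CP10K in the wild-type livers. In the SIRT7-/- livers it differed by -220, -47.7 and -117 CP10K, so the lower periportal mean came from these mice. Fabp2 was at 3.10 ± 2.38 and 2.51 ± 2.31 CP10K and Fabp5 at 6.71 ± 5.95 and 4.52 ± 5.98 CP10K, higher on the periportal side in 3 and 1 of 6 mice. These differences within mice were not tested. Malat1, at 112 ± 58.5 and 219 ± 84.5 CP10K, moved with the division, and its part in these values was not tested. Within cluster 2 alone Fabp1 was at 309 ± 125 and 317 ± 106 CP10K over 5 mice. There Fabp2, at 4.62 ± 2.89 and 5.99 ± 4.28 CP10K, and Fabp5, at 10.7 ± 9.57 and 12.7 ± 13.1 CP10K, had the higher mean on the periportal side, unlike in the combined clusters, and the periportal part was the higher in 4 and 2 of 5 mice.

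The other genes of fatty acid handling were tested by limma over all genes of a class, in 6 lists of 122 genes without the 5 Fabp genes, of which 110 were in the table. In cluster 2, 98 of them passed the filter, 3 were higher and 0 lower in SIRT7-/- mice, and 41 of 8537 genes (0.48%) were called in all, 12 higher and 29 lower. Of the 98, 18 had an unadjusted p under 0.05 (10.2% of all genes did), and limma voom called 13 (5.4% of all genes). Their median log2 fold change was 0.03, against -0.09 over all genes. The lists were chosen with earlier results of these data known, so their counts beside all genes are a description and not independent support.

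The 3 genes that rose in cluster 2 belong to triglyceride storage and to peroxisomal oxidation. G0s2, an inhibitor of the triglyceride lipase ATGL, averaged 1.94, 3.0 and 2.31 CP10K in the wild-type livers and 6.30, 6.69 and 6.31 CP10K in the SIRT7-/- livers (log2 fold change 1.42 ± 0.256, adjusted p = 0.0107). Fitm1, which helps form lipid droplets, averaged 0.387, 0.361 and 0.428 CP10K against 1.86, 2.46 and 1.76 CP10K (2.22 ± 0.345, adjusted p = 0.00372). Acaa1b, a peroxisomal thiolase and PPAR alpha target, averaged 18.0, 13.6 and 14.8 CP10K against 30.3, 29.8 and 33.9 CP10K (1.02 ± 0.199, adjusted p = 0.0167). In all 3 genes each SIRT7-/- mouse stood above each wild-type mouse. Their calls depended on the fit, since without the trend and robust settings of limma 0 list genes were called and without SIRT7-/- mouse 2 only 1 was.

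By list, 2 of 19 tested genes of triglyceride storage, breakdown and export rose (median 0.08), as did 1 of 31 PPAR alpha targets (0.13). None of the 16 genes of fatty acid uptake and activation was called (median -0.33), none of 12 other lipid carriers (0.21) and none of 19 nuclear receptors and partners (0.22). By an unadjusted p under 0.05 these 3 lists held 2, 1 and 0 genes, and voom called 4, 1 and 0.

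Among the most abundant genes of the lists, Dbi, whose level followed Fabp1 most closely, was at 80, 60.2 and 62.2 CP10K against 114, 131 and 87.5 CP10K, with no overlap but short of the threshold (0.71 ± 0.185, adjusted p = 0.105 by limma). Acsl1, which activates fatty acids to acyl-CoA, was at 5.57, 6.02 and 5.41 CP10K against 2.01, 1.96 and 4.45 CP10K (-1.11 ± 0.298, adjusted p = 0.119). Here each SIRT7-/- mouse lay below each wild-type mouse without the gene passing the test.

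**Figure D5:**
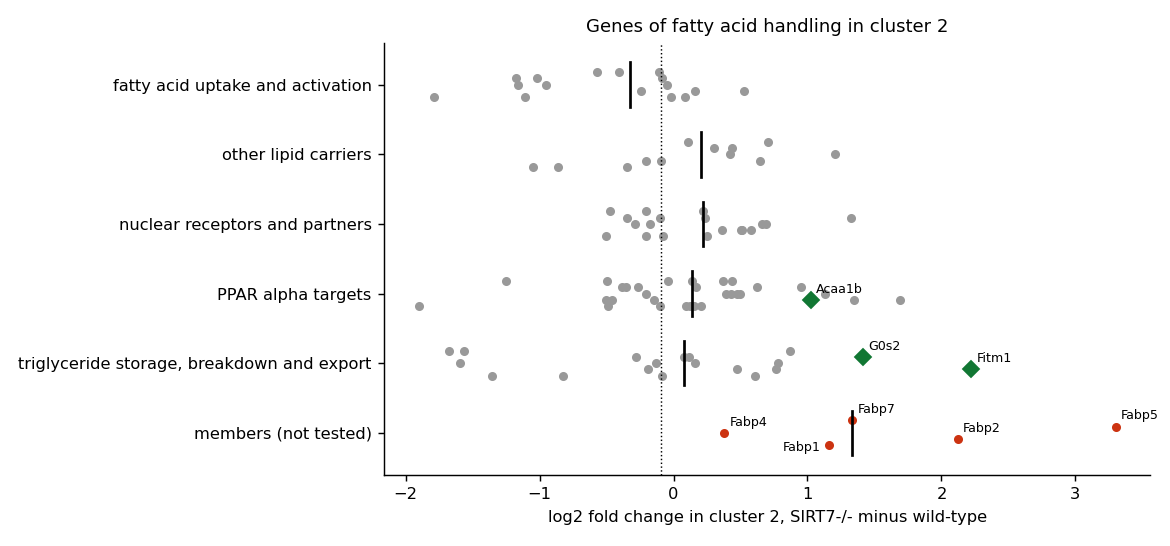
Log2 fold change in cluster 2 (horizontal, SIRT7-/- minus wild-type) of the tested genes of 5 fatty acid handling lists and of the 5 Fabp genes (vertical), with black bars at list medians and a dotted line at the median of all genes (-0.09). Green diamonds are the 3 list genes that passed limma, at 1.02 to 2.22, and the Fabp genes, which were not tested, lie at 0.38 to 3.30.

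The other 3 classes gave few calls on these lists. In cluster 4 limma called 0 of 102 list genes, 13 had an unadjusted p under 0.05 (9.9% of all genes did) and voom called 3 (0.843% of all genes), while 28 of 10315 genes (0.271%) were called in all. Those were 10 higher and 18 lower, or 2 higher and 18 lower with mice shifted by their medians, and the median of the list genes was 0.38 against 0.20 over all genes. Acaa1b was again above in each SIRT7-/- mouse there, at 12.1, 13 and 11.3 CP10K against 18.6, 41.3 and 28.7 CP10K, without passing limma (1.21 ± 0.390, adjusted p = 0.290). G0s2 (1.04 ± 0.469) and Fitm1 (0.57 ± 0.624) overlapped between the genotypes in cluster 4.

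In macrophage-like cells limma called 0 of 84 list genes, 22 had an unadjusted p under 0.05 (10.6% of all genes did) and voom called 0 (0.151% of all genes), while 21 of 9945 genes (0.211%) were called in all, and the list median was -0.31 against -0.03. In endothelial-like cells 1 of 94 list genes fell, 11 had an unadjusted p under 0.05 (7.42% of all genes did), voom called 0 (0.0562% of all genes), and 34 of 10678 genes (0.318%) were called in all. These were 8 higher and 26 lower, or 7 higher and 14 lower with mice shifted by their medians. The gene that fell was Cyp4a10, a fatty acid omega-hydroxylase of hepatocytes and PPAR alpha target, at 1.14, 1.02 and 0.546 CP10K in the wild-type livers and 0.262 and 0 CP10K in SIRT7-/- mice 1 and 2 (-2.87 ± 0.650, adjusted p = 0.0363 by limma). Its call was lost with mice shifted by their medians, on means of the ln values, on summed UMIs and without the trend and robust settings. It was also lost at a minimum mean of 0.2 CP10K, with mice of at least 5 cells, and without wild-type mouse 1 or 2. The summed hepatocyte markers in these endothelial-like cells moved with Cyp4a10, at 129.5, 118 and 67.1 CP10K against 88 and 20.5 CP10K, and their part in the result was not tested. For the PPAR alpha targets in macrophage-like cells (median -0.57) the summed hepatocyte markers were at 95.2, 69.9 and 36.0 CP10K against 40.4, 9.61 and 53.0 CP10K, and their part was not tested either.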

How the data were processed

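Single-cell RNA sequencing of 3 wild-type and 3 SIRT7-/- mouse livers was used. Per the submitters' processing notes, reads were processed with Cell Ranger 6.0.0 on mm10. The authors removed cells with few genes or a high mitochondrial share, scaled each cell to 10000 counts and deposited the natural log of that value plus 1. UMIs were worked back from the smallest step of each cell, and all 12961041 values above 0 came out whole within 0.02. Barcode endings gave the mouse.

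Cells were clustered with scanpy 1.11.5 and leidenalg 0.10.2 (1000 variable genes, 997 once the Fabp genes among them were left out, 50 principal components, 3 neighbors from each mouse, resolution 0.35), with components and graph weights computed in double precision and rounded. Clusters were named only from marker lists, with "-like" added. Doublets were left in. The fewest genes in a cell was 500.

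For each mouse with at least 20 cells of a class, log2(mean CP10K + 0.05) was compared between the genotypes with limma 3.58.1 (R 4.3.3, trend and robust eBayes, two-sided) over genes averaging 0.05 CP10K or more. Adjusted p-values (Benjamini-Hochberg) cover all genes tested in the class, with a threshold of 0.05. A fold change on this scale understates that of rare genes. Values after ± are SD for levels and SE for log2 fold changes. The mouse was the replicate. The study used MAST over cells, which was not used here. The limma steps were tested on simulated data. Alternatives changed the pseudocount, filter, mean, weights, scaling, moderation, pairing, mice, clustering and minimum number of cells.

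The 5 Fabp genes and all lists were chosen with earlier results of these data known. Other genes named were Sirt7, list genes that passed limma, the 2 most abundant genes of a list in clusters 2 and 4, the 3 nearest neighbors of each Fabp gene, and markers used as checks. Some genes that this rule names are not reported here. RefSeq sequences and positions are from GRCm38.p6. Single mice limit precision to their UMIs, and intervals cover counting error only.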

Additional observations from a re-analysis of the deposited data

How the results depend on the processing

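Fabp1, Fabp2 and Fabp5 stayed above 0 in cluster 2 in all 18 settings tried, with log2 fold changes of 1.10 to 1.28, 1.55 to 2.24 and 2.66 to 3.81. Fabp2 there was 1.87 with a pseudocount of 0.5 and 1.55 on means of the ln values, which shrink rare genes by construction. Fabp5 stayed above 0 in every class under all settings, at 0.83 to 2.90 in cluster 4, 0.41 to 1.35 in T-like and 0.21 to 1.07 in macrophage-like cells, each lowest on ln means. Its range was 0.17 to 1.65 in plasma-like and 0.41 to 2.22 in B-like cells. Of 42 log2 fold changes of the Fabp genes, 17 took the other sign in at least 1 setting. In 1 of them the reported difference was larger than the spread between mice, Fabp7 in plasma-like cells, from -1.29 to 0.0518 on summed UMIs. Others that turned were Fabp1 in B-like cells (0.96 to -0.84 on ln means), Fabp4 in endothelial-like cells (0.29 to -0.85 without SIRT7-/- mouse 1) and Fabp2 there (0.13 to -1.16 with mice of at least 5 cells). The causes were not tested.

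Counts of genes called were unstable, and the cause was not tested unless stated. In cluster 2 (41 genes, 3 on the lists) they were 23 with a minimum mean of 0.2 CP10K, 5 list genes without a filter, 10 genes on ln means, 95 and 7 on summed UMIs, 461 and 13 with voom, and 2 and 0 without trend and robust eBayes. In cluster 4 (28 and 0) they were 9 with a minimum mean of 0.2, 11 without a filter, 18 on ln means, 11 on summed UMIs, 87 and 3 with voom, 1 without trend and robust eBayes, and 11 with at least 50 cells, where fewer mice enter. In macrophage-like cells (21 and 0) they were 1 without a filter, 57 and 3 on ln means, 1 without trend and robust eBayes, and 1 with at least 50 cells. In endothelial-like cells (34 and 1) they were 52 and 2 with a pseudocount of 0.5, 10 and 0 with a minimum mean of 0.2, 87 and 3 without a filter, 7 and 0 on summed UMIs, 6 and 0 with voom, 21 and 0 with mice shifted by their medians, 0 and 0 without trend and robust eBayes, and 4 and 0 with mice of at least 5 cells. That last alternative was chosen after seeing the data and brings in SIRT7-/- mouse 3. The list count was also 0 on ln means.

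Leaving out each mouse in turn gave 19 to 149 genes in cluster 2, 9 to 94 in cluster 4, 1 to 99 in macrophage-like and 8 to 256 in endothelial-like cells, and 1 to 10, 0 to 0, 0 to 3 and 0 to 12 list genes. In cluster 2 the counts without wild-type mouse 2 and SIRT7-/- mice 2 and 3 were 23, 19 and 149. In cluster 4 they were 9, 11 and 11 without wild-type mice 1 to 3 and 14 and 94 without SIRT7-/- mice 2 and 3. In macrophage-like cells they were 1, 1 and 3 without wild-type mice 1 to 3 and 99 and 1 without SIRT7-/- mice 1 and 3. In endothelial-like cells they were 8 and 75 without wild-type mice 1 and 3 and 256 and 13 without SIRT7-/- mice 1 and 2. The list count of cluster 2 was 5, 1 and 10 without wild-type mouse 1 and SIRT7-/- mice 2 and 3. That of macrophage-like cells was 3 without SIRT7-/- mouse 1, and that of endothelial-like cells was 0 without wild-type mouse 1 or 2 and 12 without SIRT7-/- mouse 1. Where 1 mouse of a genotype was left, it was assumed to vary like the others.

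Replicate numbers are shared between the genotypes and are not stated to mark a common animal or day. In cluster 2 the deviations of same-numbered mice correlated at -0.04, -0.07 and -0.16, so the mice were not taken as pairs. With a replicate block, 2 genes were called in cluster 2, 59 in cluster 4, 146 in macrophage-like and 99 in endothelial-like cells, and 0, 0, 3 and 1 of the list genes. The block could not be fitted in plasma-like and B-like cells. Thinning to 1000 UMIs took the share of macrophage-like cells with Fabp7 from 62.2% to 39.6%. Scrublet marked 0.396% of cells, a share taken as too low to rely on, so the alternative without doublets was not run.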

Other observations

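The 3 other Fabp genes in the table were close to absent. Fabp3, the heart form, had 8, 4 and 5 UMIs over all cells of the wild-type livers and 6, 5 and 10 in the SIRT7-/- livers. Fabp6, the ileal form that binds bile acids, had 1, 0 and 0 UMIs against 1, 1 and 0, and Fabp12 had 1, 1 and 0 against 1, 4 and 7. At these counts a difference between the genotypes was not tested.

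From cell to cell within cluster 2 of 1 mouse, Fabp1 and Fabp5 were loosely related. Pearson r over the cells was 0.13, 0.08 and -0.07 in the wild-type livers (479, 411 and 54 cells) and 0.25, 0.25 and 0.53 in the SIRT7-/- livers (511, 229 and 64 cells). Cells share a library and most hold few Fabp5 UMIs, so these are descriptions. For Fabp1 and Fabp2 the values were 0.04, 0.04 and 0.04 against 0.14, 0.13 and 0.28.

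Clustering at a finer resolution divided the macrophage-like cells. A group led by Hmox1, Marco and Vsig4 had 8.18 ± 1.66 CP10K of Fabp7 (n = 5 mice with at least 20 cells), and a group led by Retnla and Cx3cr1 had 3.28 ± 1.69 CP10K (n = 3). In the 3 mice with both groups Fabp7 was higher in the first, at 8.74 against 5.09 CP10K in wild-type mouse 3, 7.22 against 3.02 CP10K in SIRT7-/- mouse 1 and 10.7 against 1.73 CP10K in SIRT7-/- mouse 2. Fabp5 in the Retnla and Cx3cr1 group was at 0.616 CP10K in the 1 wild-type mouse with enough cells and at 1.6 and 2.02 CP10K in SIRT7-/- mice 1 and 2, which allows no comparison of the genotypes.

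Clec4f and Timd4, Kupffer cell genes, did not separate the genotypes in macrophage-like cells. Clec4f was at 33.2, 24.4 and 28.5 CP10K in the wild-type livers and 26.1, 23.3 and 27.0 CP10K in the SIRT7-/- livers, and Timd4 at 6.00, 4.28 and 5.43 CP10K against 5.18, 5.51 and 4.25 CP10K. By limma the adjusted p was 0.754 for Clec4f and 0.932 for Timd4.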
